A study of Mus musculus with 24 samples.

Results

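Mouse embryonic stem (ES) cells lacking the histone methyltransferase G9a were compared after 10 days of differentiation and in the undifferentiated state at day 0, gene by gene, in 3 RNA-seq libraries of each stage. These 6 libraries are 6 of the 24 samples of the series, chosen by their labels: G9a knockout, RNA, day 10 or day 0. Day 10 knockout cells had been without LIF, the cytokine that holds mouse ES cells undifferentiated, for 4 days in suspension and 6 further days on gelatinized plates. Day 0 knockout cells were the same line kept undifferentiated. Both stages were also sequenced from the parental line, 16.7 Tsix +/TST, with 3 libraries each. These were set beside the knockout's values, and they also entered the gene filter and the shared estimate of the spread behind the knockout's limma p-values. The parental line is a female hybrid of musculus and castaneus X chromosomes, and every group, knockout and parental, carries the Tsix truncation allele (TST). Whether the knockout is 1 clone or several is not given in the sources used here. The labels also do not say whether the libraries of a group came from separate cultures, so every p-value below measures only the spread between these libraries. Of the 24016 genes listed, 20624 had more than 1 scaled read in at least 3 of the 12 RNA libraries and were tested.

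Undifferentiated mouse ES cells resemble the naive epiblast of the blastocyst and hold that state through a network of transcription factors that includes Nanog, Esrrb and Klf4. When LIF is withdrawn the network is dismantled, genes of the primed epiblast and of the primitive streak come on, and later mesoderm, endoderm, ectoderm and extraembryonic genes follow. G9a, encoded by Ehmt2, works as a dimer with its relative GLP, encoded by Ehmt1, and places mono- and dimethylation on lysine 9 of histone H3, a mark of repressed euchromatin. In female ES cells differentiation also starts X inactivation: Xist RNA coats 1 X chromosome and silences it, while its antisense partner Tsix holds Xist down on the chromosome that carries it intact.

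Values are scaled reads, that is reads per gene brought by the authors to 1 common total per library. A change is the log2 difference of scaled reads + 1, day 10 over day 0, given with its standard error (SE), and a gene is called higher or lower at an adjusted p under 0.05 by limma with Benjamini-Hochberg adjustment over the 20624 genes. Values after "rose by" and "fell by" are on this log2 scale. The library labelled knockout day 0 replicate 1 stood apart from its group. It held 2790870 reads, where day 0 replicates 2 and 3 held 26683300 and 21087200 and the 3 day 10 libraries 2190470 to 3222160. Across genes the correlation of log2 values was 0.960 to 0.971 between day 10 libraries, 0.994 between day 0 replicates 2 and 3, and 0.907 to 0.908 between day 0 replicate 1 and either of them. Day 0 replicates 2 and 3 had a mean chi-square of 2.73 per gene with a median of 1.07, and were counted as 2 samples as labelled, though the files cannot tell separate cultures from 1 culture sequenced again. Genes over 100 kb took 18.4% to 19.9% of reads at day 10, against 32.1% in day 0 replicate 1 and 16.2% in both other day 0 libraries. The 1452 olfactory and vomeronasal receptor genes, silent in ES cells, summed to 29.6 to 64.6 CPM at day 10, against 1023 CPM in day 0 replicate 1 and 109 and 113 CPM in replicates 2 and 3 (Rn45s left out of the totals). The parental library day 10 replicate 3 held 1038 CPM of such reads. Rn45s, the ribosomal RNA precursor, took 16.9% to 25.1% of reads at day 10 and 21.9% in day 0 replicate 1, but 0.115% and 0.118% in day 0 replicates 2 and 3. In Rn45s share and depth those 2 libraries thus differed from every day 10 library. Counts without day 0 replicate 1 are given beside some of the gene lists whose calls changed with it, and other lists changed too. For example, limma without it called higher 12 of 29 streak and mesoderm, 5 of 14 signalling and 9 of 24 epithelial genes. This fit also called higher 4 of 32 endoderm, 4 of 26 interferon and 4 of 16 histone genes, against 3.54% of all genes tested. It called lower 5 of 27 neural ectoderm genes and 8 of 25 genes of the Magea, Xlr and Rhox list. Also lower were 2 of 34 imprinted genes and 1 of 11 primed epiblast genes, against 10.3% of all genes tested. Of 21 endothelial and blood genes 2 were then higher and 4 lower. Markers of other cell types summed as follows. The 16 fibroblast genes gave 557, 1318 and 1508 CPM at day 10, against 691, 206 and 209 CPM at day 0. Neuronal and glial genes gave 45.8 to 78.7 CPM at day 10, against 366, 70.9 and 68.7 CPM at day 0. Macrophage genes gave 12.2 to 17.1 CPM at day 10, against 104, 23.6 and 23.5 CPM at day 0. Y-linked genes, which a female line lacks, gave 3.66, 0.379 and 0.776 CPM at day 10, against 15.1, 1.13 and 1.47 CPM at day 0.

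The targeted gene itself still gave reads. Ehmt2 (build mm9, as are all gene coordinates here, chr17:35035437-35050995) had 499.8, 758 and 628 scaled reads in knockout cells at day 10 and 557, 441 and 375 in knockout cells at day 0, a log2 change of 0.46 ± 0.31 (SE, adjusted p = 0.304) in limma. The lowest day 10 library lay below the highest day 0 library, and an exact two-sided permutation test of the scaled reads gave p = 0.2, where 3 against 3 libraries can reach no less than 0.1. The parental libraries held 1297, 1359 and 719 at day 10 and 987, 1102 and 1375 at day 0. Which exons the deletion removes is not given in the sources used here, so a count over the whole gene checks the label only in part. Ehmt1 changed by 0.30 ± 0.26 (SE, adjusted p = 0.414) in limma.

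By day 10 knockout cells had switched on keratins, contractile genes, mesoderm and caudal transcription factors and a group of imprinted genes, and had lowered 18 of 32 naive pluripotency genes in limma (13 in edgeR, 14 after RLE scaling) and a set of germline genes. In limma 502 genes were higher and 1332 lower at day 10 than at day 0, which is 2.43% and 6.46% of the genes tested, or 8.89% in all. The excess of lower calls was not stable. EdgeR's quasi-likelihood test on the recovered reads called 551 higher (3.7%) and 495 lower (3.33%) of 14884 genes, 7.03% in all. Both tools called 448 higher (3.01%) and 482 lower genes (3.24%). Among limma's calls 27.4% were higher, and after scaling by median ratios (RLE) 52.9% were, with 785 higher (3.81%) and 700 lower genes (3.4%), 7.21% in all. With Rn45s left out of the totals 672 were higher and 843 lower. DESeq2 called 1403 higher (8.11%) and 1947 lower genes (11.2%). Without day 0 replicate 1 the calls numbered 731 higher (3.54%) and 2133 lower (10.3%), and 471 of the 502 higher but 815 of the 1332 lower genes were among them. EdgeR without that library called 988 higher (6.51%) and 1677 lower (11.1%). Without the parental library day 10 replicate 3, which shares the estimate of the spread, they numbered 741 and 3776. Leaving out any other knockout library left fewer calls, from 245 higher and 257 lower without day 10 replicate 1 to 113 higher and 86 lower without day 10 replicate 3, with 138 and 160 without day 10 replicate 2, 175 and 125 without day 0 replicate 2, and 165 and 120 without day 0 replicate 3.

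The median log2 change over all genes tested was -0.68, so the typical gene lay below 0 on this scale, and it was -0.41 after RLE scaling, -0.49 with Rn45s left out of the totals and -0.33 in edgeR. With genes that had no day 10 read set at the bound that 3 reads over the group allow, it was -0.56. The shift was larger among weakly expressed genes. Genes averaging up to 10 scaled reads had a median of -1.72, those between 10 and 50 a median of -1.80 and those above 1000 a median of -0.14. Of the 1332 lower genes, 302 had no read in any day 10 library, 25.8% were over 100 kb long against 11.2% of all genes tested, and 42.2% had more than 2 times the value of both other day 0 libraries in day 0 replicate 1, against 32.0% of all genes tested. Day 10 and day 0 libraries did not overlap in 500 of the 502 higher genes and in 1332 of the 1332 lower genes, against 45.5% of all genes tested. The calls rest on the same values, so this is no separate support for them. In the gene groups below, each list's median is to be read against the -0.68 of all genes. For lists of weakly expressed genes it is also to be read against the -1.72 and -1.80 above.

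The largest rises among genes called by both tools came from the cytoskeleton, from mesoderm and epithelium, and from the H19 locus. Acta1 (chr8:126415658-126418675), the alpha-actin of skeletal muscle, had 528, 887 and 1036 scaled reads at day 10 and 0, 4.56 and 2.06 at day 0, a log2 change of 8.26 ± 0.81 (SE, adjusted p = 0.000145). Krt8 (chr15:101827142-101834773), a keratin of simple epithelia and of the trophectoderm, had 2399.9, 3642 and 3484 at day 10 and 15.6, 19.9 and 16.1 at day 0, a change of 7.43 ± 0.36 (SE, adjusted p = 1.05e-07). Only genes whose stages did not overlap were eligible for this ranking, so the gap between stages in these genes is no separate support. Krt18 (chr15:101858647-101862457), the partner that pairs with Krt8 in the filament, had 3296, 4885 and 3632 at day 10 and 9.34, 46.9 and 53.2 at day 0, a change of 7.02 ± 0.64 (SE, adjusted p = 0.000109). Foxf1 (chr8:123608286-123612054), a forkhead factor of lateral plate mesoderm, had 349, 353 and 461 at day 10 and 0, 1.95 and 7.42 at day 0, a change of 7.05 ± 1.18 (SE, adjusted p = 0.00528). Its day 0 reads ranged down to none, so the size of its fold depends on the 1 scaled read added before the logarithm. H19 (chr7:149761437-149764051), a maternally expressed noncoding RNA, had 21929, 29426 and 30284 at day 10 and 128, 368 and 341 at day 0, a change of 6.73 ± 0.44 (SE, adjusted p = 3.19e-06). Zfp703 at 6.16, Hand1 at 5.98, Nlrp4e at 5.87 and Msx1 at 5.72 were also among them.

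**Figure D1:**
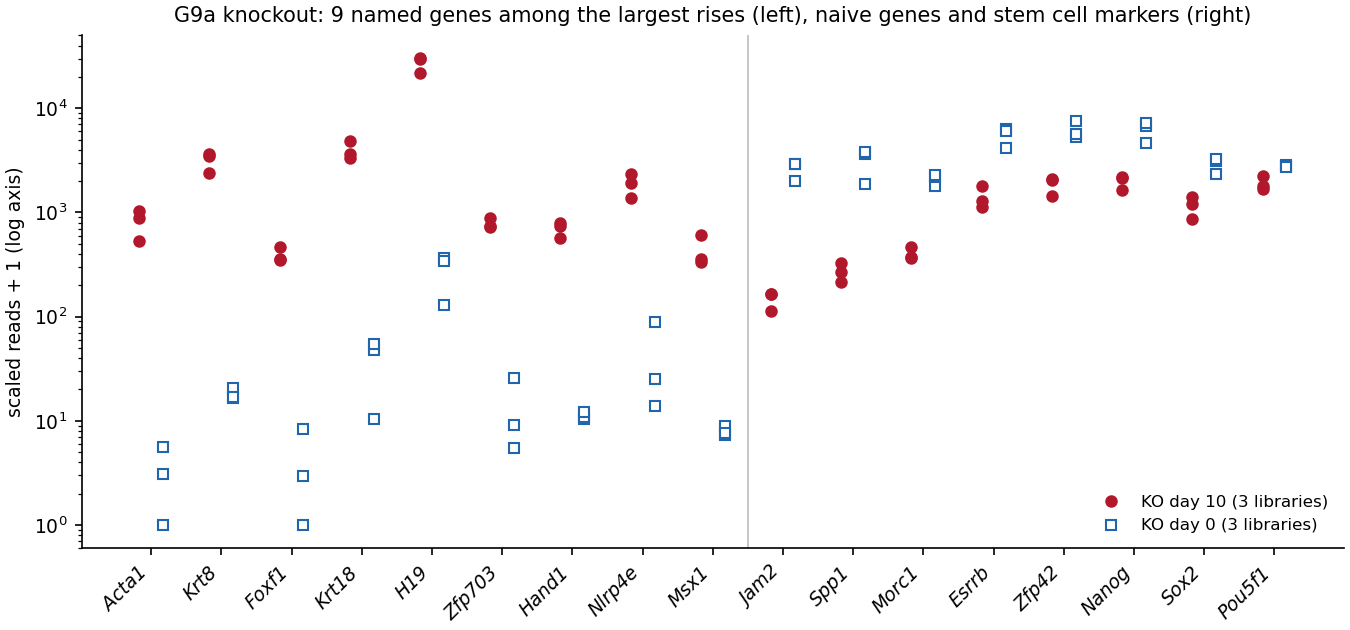
Scaled reads + 1 per library, on a log axis, of 9 genes among the largest rises called by both tools, of 4 naive genes, and of Zfp42, Nanog, Sox2 and Pou5f1, in knockout cells at day 10 and at day 0. Acta1 sits at 528 to 1036 scaled reads at day 10 and at 0 to 4.56 at day 0, while Pou5f1 sits at 1694 to 2253 at day 10 and at 2747 to 2836 at day 0.

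Of 29 primitive streak and mesoderm genes tested, 11 rose in knockout cells, and the list's median change was 2.62. T (chr17:8627288-8635361), the brachyury factor that marks the streak, had 559, 323 and 375 scaled reads at day 10 and 12.4, 6.51 and 6.18 at day 0, a change of 5.51 ± 0.59 (SE, adjusted p = 0.000202). Fgf8 (chr19:45811288-45817374), a growth factor of the streak, had 670.4, 298 and 224 at day 10 and 12.4, 5.54 and 3.3 at day 0, a change of 5.62 ± 0.87 (SE, adjusted p = 0.0033). Foxf1, given above, was among the 11. Hand1, a basic helix-loop-helix factor of lateral mesoderm and trophoblast, had 567, 747 and 798 at day 10 and 9.34, 9.77 and 11.1 at day 0. The day 10 and day 0 libraries of all 3 genes lay far apart, and for T and Fgf8 day 10 replicate 1 was the highest. Evx1, a homeobox gene of the posterior streak, rose by 3.93, Wnt3 by 3.62, Msx2 by 2.80 and Tbx20 by 3.17. Snai1 at 2.80 and Tcf21 at 3.71 passed in limma and not in edgeR. In parental cells 10 of the 29 rose, 9 of them among these 11.

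Readouts of signalling pathways rose in the same samples. Of 14 genes that report LIF, FGF, BMP and Wnt signalling, 4 rose and the other 10 did not pass. Axin2 (chr11:108781663-108812095), a feedback inhibitor switched on by Wnt signalling, had 690.2, 1016 and 979 scaled reads at day 10 and 106, 75.2 and 72.9 at day 0, a change of 3.39 ± 0.44 (SE, adjusted p = 0.000984). Dusp6, the phosphatase that follows FGF and ERK activity, rose by 2.00, and the BMP-induced Id3 and Id1 rose by 1.98 and 1.89. Of 11 primed epiblast genes 3 rose: Lef1, a transcription factor of the Wnt pathway, by 2.78, Wnt8a, a Wnt ligand, by 3.07, and Pou3f1 (Oct6), a POU factor of the epiblast and early neural cells, by 1.78.

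Trophoblast, caudal and epithelial genes rose together. Of 20 trophoblast and caudal genes 8 rose, with a list median of 1.62, and of 24 genes of surface ectoderm and epithelium 8 rose, with a median of 1.23. Krt7 and Krt18 stand in both lists. Cdx2 (chr5:148112476-148118825), a homeobox factor of the trophectoderm and of the caudal embryo, had 234, 359 and 464 scaled reads at day 10 and 21.8, 1.3 and 4.53 at day 0, a change of 5.68 ± 0.84 (SE, adjusted p = 0.00242). Krt19 (chr11:100002126-100007233), another simple-epithelium keratin, had 460.1, 808 and 542 at day 10 and 28, 12.1 and 13.2 at day 0, a change of 5.07 ± 0.52 (SE, adjusted p = 0.000149). The groups did not overlap for either gene. Krt7 rose by 5.23, the tight junction genes Cldn6 and Cldn7 by 4.14 and 3.01, the desmosome gene Dsp by 2.26, and Esrp1, a splicing factor of epithelia, by 1.64. Gata2 and Gata3, zinc finger factors of trophoblast and blood, rose by 2.74 and 1.88. In parental cells 8 of the 20 trophoblast and caudal genes and 10 of the 24 epithelial genes rose.

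Contractile genes had the highest share of raised members of the 35 lists. Of 24 smooth muscle and contractile genes, 14 rose in limma and the same 14 rose in edgeR, with a list median of 1.71. Without day 0 replicate 1 Csrp1 was no longer called and the other 13 were. Tagln (chr9:45737711-45744141), an actin-binding protein of smooth muscle, had 809, 1840.0 and 1475 scaled reads at day 10 and 74.7, 55.4 and 55.6 at day 0, a change of 4.38 ± 0.51 (SE, adjusted p = 0.000361). Tpm1 (chr9:66870400-66897020), a tropomyosin, had 6276, 8181 and 7071 at day 10 and 539, 1161 and 1148 at day 0, a change of 2.99 ± 0.31 (SE, adjusted p = 0.000149). Cnn2 (chr10:79451345-79458145), a calponin, had 1265, 2054 and 2592 at day 10 and 74.7, 157 and 151 at day 0, a change of 3.95 ± 0.41 (SE, adjusted p = 0.000149). All 14 had their lowest day 10 value in replicate 1, which was also the lowest day 10 library for 317 (63.1%) of all 502 higher genes. In Acta2 (chr19:34314826-34329863), the alpha-actin of smooth muscle, the spread was wide: 627, 3283 and 3042 at day 10, against 165, 76.2 and 70.5 at day 0, a change of 4.25 ± 0.82 (SE, adjusted p = 0.0112). Actc1 and Myl9, the cardiac alpha-actin and a myosin light chain, rose by 4.90 and 4.03. In parental cells 6 of the 24 genes rose, and all 6 are among the 14.

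These contractile genes are classic targets of serum response factor, which binds the CArG box, so their promoters are shown where that letter pattern occurs. Of the 14 genes that rose, 13 had an entry among the RefSeq promoters (build GRCm38.p6), and 4 of these held a CArG box in the 250 bases before the start site. Of the 8 genes of the list that did not pass and had an entry, 2 did, Myl6 and Vcl. Over all genes with an entry 439 of 27025, or 1.62%, held one. The pattern reads the same on both strands, so both were covered by 1 search, and a match describes letters only. The 4 promoters run 5' to 3' on the strand of the gene, with the CArG box in capitals. They come from chr8:123894776-123895025 (minus strand) for Acta1, chr2:114052876-114053125 (minus) for Actc1, chr10:79988350-79988599 (plus) for Cnn2 and chr2:156775214-156775463 (plus) for Myl9. The match begins 73 bases before the start in Acta1, 47 in Actc1, 56 in Cnn2 and 161 in Myl9.
Acta1: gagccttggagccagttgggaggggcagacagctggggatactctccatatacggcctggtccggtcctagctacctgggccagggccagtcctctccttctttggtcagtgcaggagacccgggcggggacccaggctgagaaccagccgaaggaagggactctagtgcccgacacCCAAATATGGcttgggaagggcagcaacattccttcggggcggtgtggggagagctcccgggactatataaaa
Actc1: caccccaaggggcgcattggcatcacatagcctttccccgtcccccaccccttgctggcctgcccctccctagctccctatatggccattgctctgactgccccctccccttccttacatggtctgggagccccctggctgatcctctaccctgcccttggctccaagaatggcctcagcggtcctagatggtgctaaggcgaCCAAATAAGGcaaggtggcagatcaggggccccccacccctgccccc
Cnn2: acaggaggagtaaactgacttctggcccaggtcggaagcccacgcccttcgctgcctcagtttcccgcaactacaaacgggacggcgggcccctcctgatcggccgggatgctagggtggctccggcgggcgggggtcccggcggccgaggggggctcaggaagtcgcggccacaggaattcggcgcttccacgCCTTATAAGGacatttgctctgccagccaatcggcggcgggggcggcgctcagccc
Myl9: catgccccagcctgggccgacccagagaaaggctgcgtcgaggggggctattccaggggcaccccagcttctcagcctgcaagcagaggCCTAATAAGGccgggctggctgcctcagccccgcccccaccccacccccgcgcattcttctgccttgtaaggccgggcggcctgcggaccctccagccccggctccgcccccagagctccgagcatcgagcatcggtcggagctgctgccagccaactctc

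Lists of other mesoderm derivatives and of endoderm did not move in a common direction. Of 21 cardiac and skeletal muscle genes, Tnnc1, the troponin C of heart and slow muscle, was the only one to pass, at 3.4. Among 32 genes of primitive, visceral and definitive endoderm, 3 rose and 2 fell, with a list median of -0.82 (-0.79 with genes at their bound). Gata4, an endoderm and heart factor, rose by 1.94, and the basement membrane collagens Col4a1 and Col4a2 by 1.35 and 1.54, while the laminin chain Lama1 fell by 1.58 and Rbp4 by 2.38. Of 32 collagen and matrix genes 5 rose and 4 fell, or 6 and 2 without day 0 replicate 1. Serpinh1, the collagen chaperone, rose by 1.82, and Cyr61, a matrix-associated growth regulator, by 2.74. Timp1, a metalloproteinase inhibitor, fell by 2.01. The 16 fibroblast genes summed earlier themselves include collagen and matrix genes. Their sum was higher in knockout day 10 replicates 2 and 3 than in any knockout day 0 library. Parental day 0 libraries held 1529, 246 and 191 CPM of them. In knockout cells single members went both ways, 8 with a change above 0 and 8 below. Among the 16 of them Pdgfrb rose and Fap and Dcn fell in limma, each by limma alone, and Fap and Dcn had no read at day 10. What part fibroblasts had in the contractile and matrix values was not tested. In bulk RNA, fewer cells of a type and less RNA per cell cannot be told apart. Of 21 endothelial and blood genes Flt1 rose by 2.55 and 5 fell, among them Pecam1, also an ES cell surface protein, by 1.76, and Gata1, the erythroid factor, by 4.42. Of 39 Hox genes 3 rose, and the list's median was 1.17. Hoxb8 had 23.8, 16.4 and 35.1 scaled reads at day 10 and 3.11, 1.63 and 0 at day 0, and Hoxa11 and Hoxb1 did not pass without day 0 replicate 1. Neural ectoderm had 4 of 27 genes lower and a median of -1.35 (-1.26 with genes at their bound). Stmn2, a microtubule regulator of neurons, fell by 2.66, the adhesion molecule Ncam1 by 2.09 and the midbrain factor En2 by 2.57.

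**Figure D2:**
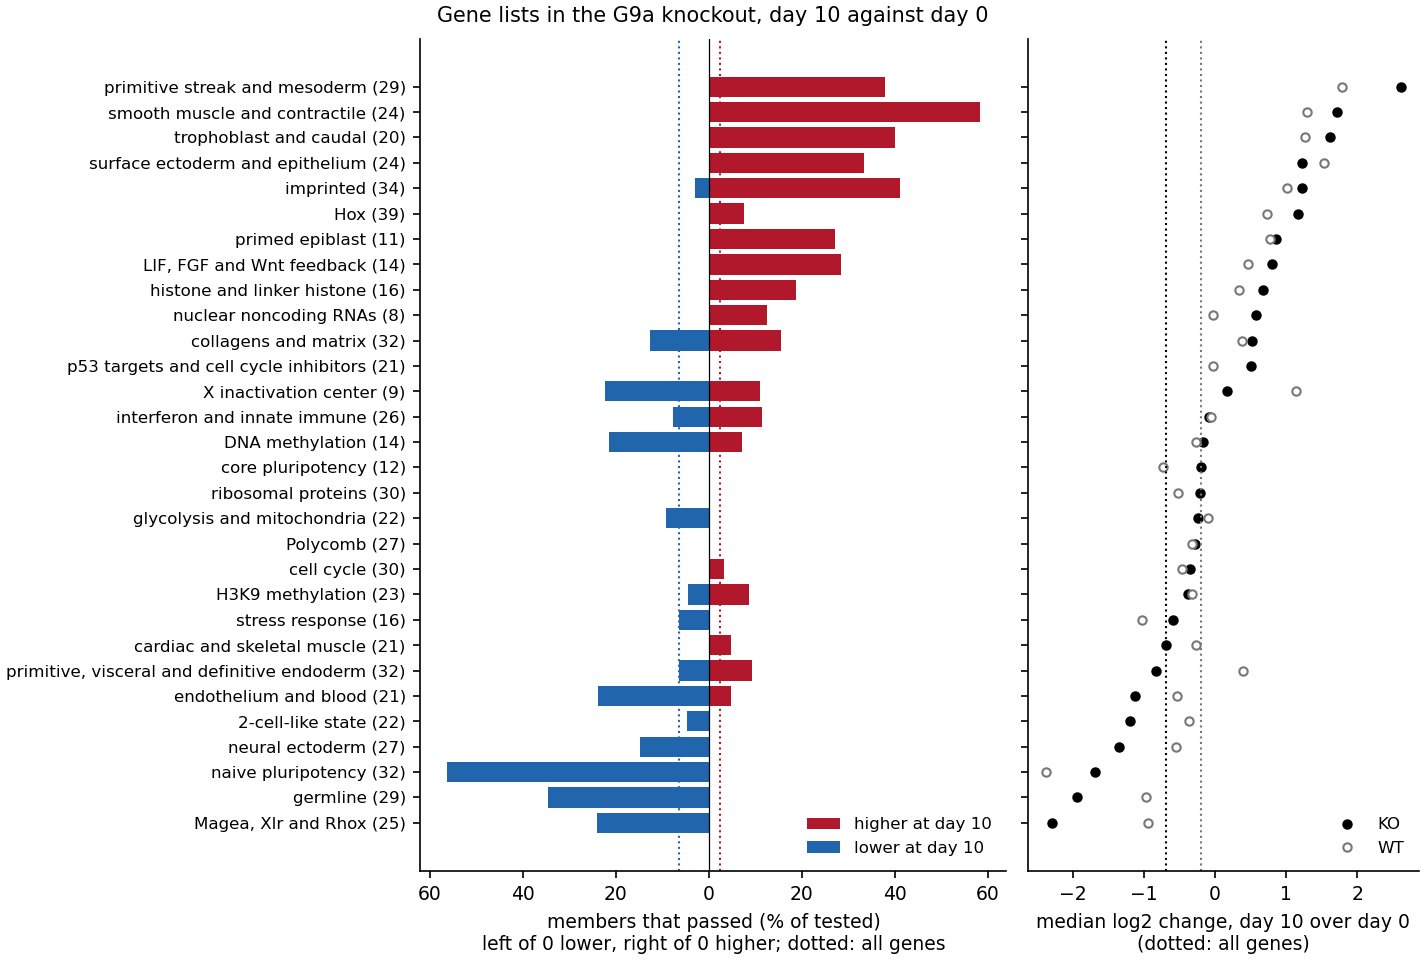
Left, the share of each gene list that was higher or lower in knockout cells at day 10 than at day 0 by limma, in percent of the members tested. Right, the median log2 change of each list in knockout and in parental cells, with dotted lines at the medians of all genes tested. The contractile and imprinted lists have 14 higher members each, and the naive list has 18 lower members.

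Of 34 imprinted genes tested, 14 rose and 1 fell, with a median of 1.23. Igf2 (chr7:149836673-149846940), the paternally expressed growth factor beside H19, had 647, 608 and 731 scaled reads at day 10 and 21.8, 15 and 19.4 at day 0, a change of 5.08 ± 0.40 (SE, adjusted p = 3.09e-05). Peg3 (chr7:6658671-6683130), a paternally expressed zinc finger gene, had 11714, 16001 and 14271 at day 10 and 641, 1959 and 1965 at day 0, a change of 3.36 ± 0.41 (SE, adjusted p = 0.000563). Meg3 (chr12:110779206-110809939), a maternally expressed noncoding RNA, had 6629, 4178 and 4975 at day 10 and 1161, 1253 and 1163 at day 0, a change of 2.11 ± 0.25 (SE, adjusted p = 0.000457). Genes normally read from either parental copy were thus among those that rose, and in none of these 3 did the stages overlap. Peg10, a retrotransposon-derived gene needed in the placenta, rose by 2.65, Airn by 3.76, Nnat by 3.16, Magel2 by 3.15, Phlda2 by 2.87 and Mest by 2.50. Grb10, a growth factor receptor adaptor, fell by 1.82. The list also holds Xist. In parental cells 13 of the 34 rose, and all 13 are among the 14.

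The naive pluripotency network fell. Of its 32 genes 18 were lower at day 10, and the list's median was -1.69. A change below 0 was found in 30 of them, and in 15554 of all 20624 genes tested. In parental cells 22 fell, 15 of them among these 18. EdgeR called 13 of the 32 lower, RLE scaling left 14, and without day 0 replicate 1 there were 23. Jam2 (chr16:84774368-84826620), a junctional adhesion molecule, had 163, 164 and 113 scaled reads at day 10 and 1993, 2907 and 2939 at day 0, a change of -4.14 ± 0.46 (SE, adjusted p = 0.000242). Esrrb (chr12:87702067-87862578), an orphan nuclear receptor of the naive network, had 1773, 1273 and 1138 at day 10 and 4181, 6362 and 6107 at day 0, a change of -1.99 ± 0.32 (SE, adjusted p = 0.00376). Nanog (chr6:122657507-122664651), its homeobox factor, had 2134, 2209.6 and 1648 at day 10 and 4599, 6818 and 7181 at day 0, a change of -1.62 ± 0.33 (SE, adjusted p = 0.0152). The stages did not overlap in any of the 3 genes, and Jam2 fell furthest. Spp1 (osteopontin) fell by 3.48, Tcl1, a cofactor of AKT kinase, by 2.81, Morc1 by 2.38, Klf5 by 2.47, Prdm14 by 2.06 and Tfcp2l1 by 2.02. Zfp42 (Rex1), the usual reporter of the naive state, fell by 1.74 with an adjusted p of 0.063 after RLE scaling.

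Several naive genes did not pass. Klf2 had 1357, 934 and 766 scaled reads at day 10 and 1264, 798 and 774 at day 0, a change of 0.10 ± 0.55 (SE, adjusted p = 0.906). Dppa3 (Stella), a maternal factor that shields DNA methylation, changed by 0.18 ± 0.44 (SE, adjusted p = 0.784). Tdh, the threonine dehydrogenase on which mouse ES cells depend, changed by -0.46 ± 0.49 (SE, adjusted p = 0.519) in knockout cells and fell by 3.09 in parental cells, and Dppa5a changed by -0.35 ± 0.47 (SE, adjusted p = 0.61) in knockout cells and fell by 2.51 in parental cells. The difference between lines was not called for either gene in limma. None of the 12 core pluripotency genes, which naive and primed cells share, was called by limma or edgeR, while 1 was higher and 2 lower at an unadjusted p under 0.05 and DESeq2 called 1 higher. Without day 0 replicate 1 limma called 2 of the 12 lower, Sox2 and Rif1. Pou5f1 (chr17:35642977-35647722), or Oct4, had 1777, 2253 and 1694 scaled reads at day 10 and 2818, 2836 and 2747 at day 0, a change of -0.56 ± 0.39 (SE, adjusted p = 0.312). Its stages did not overlap. Sox2, its partner, changed by -1.35 ± 0.44 (SE, adjusted p = 0.0648). Nanog, Zfp42, Klf2, Dppa3, Tdh, Dppa5a, Pou5f1, Sox2, Acta2, Actc1 and Myl9 were singled out here after their values were seen.

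**Figure D3:**
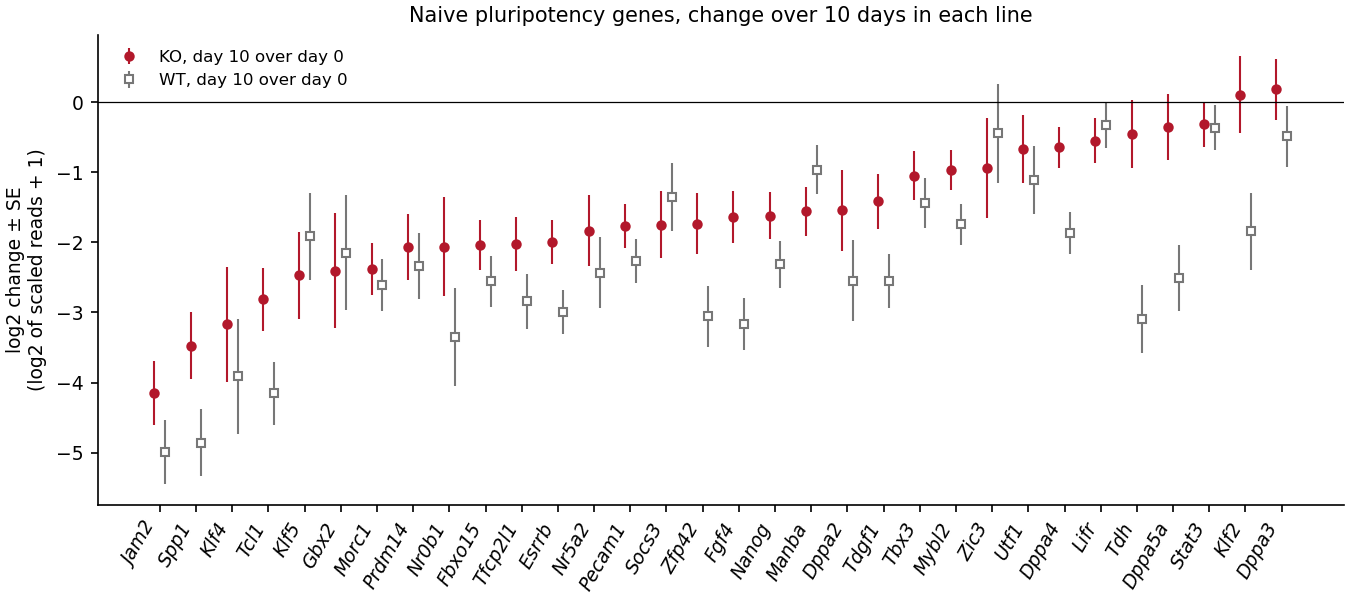
Log2 change, day 10 over day 0, of the 32 naive pluripotency genes in knockout cells and in parental cells, with bars of 1 standard error. In knockout cells 30 of the 32 lie below 0, as do 15554 of all 20624 genes tested. Jam2 is lowest at -4.14, and the medians are -1.69 in knockout and -2.38 in parental cells.

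Tet1 and Tet2 fell beside the naive network. Of 23 genes of H3K9 methylation 2 were higher and 1 lower, where 8.89% of all genes tested were called. Without day 0 replicate 1 it was 2 and 5, where 13.9% of all genes were called. The list's median was -0.38, against -0.68 over all genes. Of 14 DNA methylation genes 3 fell and 1 rose. Tet2 (chr3:133126641-133207354), which oxidizes methylcytosine, had 845, 961 and 782 scaled reads at day 10 and 2867, 4254 and 4305 at day 0, a change of -2.12 ± 0.35 (SE, adjusted p = 0.00464), and its relative Tet1 fell by 1.62. Zfp57, which protects methylated imprints, fell by 1.81. The third relative, Tet3, rose by 1.07. The methyltransferase Suv39h1 had 1206, 1624 and 1709.7 scaled reads at day 10 and 305, 646 and 648 at day 0, a change of 1.57 ± 0.38 (SE, adjusted p = 0.0288). Wiz, a zinc finger partner of the G9a and GLP complex, rose by 1.00, and Setdb2 fell by 2.51. Of 16 histone genes 3 rose, Hist3h2a by 1.61 and the linker histones Hist1h1c and Hist1h1d by 1.39 and 1.24. None of 27 Polycomb genes was called by limma or edgeR, with 2 higher and 4 lower at an unadjusted p under 0.05 and 2 higher and 2 lower in DESeq2. Without day 0 replicate 1 limma called 1 of them higher and 4 lower, Mtf2 among the lower. In that list Mtf2 changed by -1.04 ± 0.32 (SE, adjusted p = 0.0575) and Jarid2 by -0.31 ± 0.36 (SE, adjusted p = 0.551).

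Germline genes, a class whose silencing in ES cells is known to need G9a, went down more often than up. Of 29 tested, 10 were lower at day 10, and the list's median was -1.94. A change below 0 was found in 28 of them, and in 15554 of all 20624 genes tested. EdgeR called 7 lower and 1 higher, and without day 0 replicate 1 limma called 9 lower. Dazl (chr17:50418718-50432945), an RNA-binding protein of germ cells, had 27.8, 5.48 and 5.39 scaled reads at day 10 and 137, 268 and 290.1 at day 0, a change of -4.38 ± 0.78 (SE, adjusted p = 0.0073). Hormad1 (chr3:95363599-95391782), a protein of meiotic chromosome axes, had 23.8, 41.1 and 24.3 at day 10 and 103, 304 and 308 at day 0, a change of -2.84 ± 0.49 (SE, adjusted p = 0.00638). For both genes every day 0 library, replicate 1 included, lay above every day 10 library. Rnf17 fell by 2.06 and the cohesin subunit Stag3 by 1.66. In parental cells 6 of the 29 fell, 4 of them among these 10. The Magea, Xlr and Rhox families of the X chromosome were low at both stages, with 6 of 25 members lower in limma, 1 in edgeR and none of the 6 called by both tools. The list's median was -2.29, or -2.02 with genes at their bound. Near-identical copies share reads in these families, so single members are uncertain. Xlr4c had 0, 0 and 0 scaled reads at day 10 and 9.34, 27.4 and 23.9 at day 0, and Magea3 0, 0 and 0 at day 10 and 3.11, 11.7 and 11.9 at day 0. Of 22 genes of the 2-cell-like state Zfp352 was the only call in limma, at -3.00, and it did not pass in edgeR.

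In 7 of the 10 largest falls called by both tools, day 0 replicate 1 lay far above the rest of its group. Lmo3 (chr6:138313002-138530489), a LIM-domain factor of neurons, had 0, 0 and 0 scaled reads at day 10 and 542, 84.3 and 84.5 at day 0. Against a floor of 3 reads over the 3 day 10 libraries it was at least 78.0-fold lower at day 10, and at least 27.8-fold lower without day 0 replicate 1. Kcnip4, a potassium channel partner, had 0, 2.74 and 13.5 at day 10 and 1526, 199.6 and 185 at day 0. In both genes day 0 replicate 1 was more than 2 times as high as the other day 0 libraries, and the same held for Glra3, Pde1a, Grm5, Lepr and March4. The exceptions were Aspa, AI427809 and Pramel6. Aspa (chr11:73118490-73138139), the aspartoacylase of brain and kidney, had 0, 0 and 0 at day 10 and 43.6, 81.7 and 79.1 at day 0, at least 22.4-fold lower at day 10 and at least 26.5-fold lower without day 0 replicate 1. Pramel6 (chr2:87348615-87351022), a PRAME-like protein of the naive state, had 19.8, 5.48 and 0 at day 10 and 121, 502 and 461 at day 0, a change of -5.89 ± 1.29 (SE, adjusted p = 0.0195). Here it was replicates 2 and 3 of day 0 that were high. The Pramel family has near-identical members, so reads may be shared among them. Markers of neurons and glia (3 of 12 lower) and of macrophages (2 of 9 lower) and 5 of 195 tested receptor genes were lower in limma, and none of the 3 groups had a call in edgeR. Without day 0 replicate 1 the lower calls were 2, 0 and 2, and 1 receptor gene was higher. What part that library's other reads had in the lower calls was not tested beyond the counts without it.

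Calls among general cell functions depended on day 0 replicate 1. The fit without it called 3.54% of all genes tested higher and 10.3% lower, and kept only replicates 2 and 3 of day 0. Those libraries differed from every day 10 library in Rn45s share and depth, and what part this had was not tested. Of 30 cell cycle genes Ccnd2, a G1 cyclin, passed, at 3.13, with all libraries, and without day 0 replicate 1 it passed with 7 genes that were lower. None of 21 p53 targets and inhibitors was called by limma or edgeR, with 4 higher and 1 lower at an unadjusted p under 0.05 and 4 higher in DESeq2, and 1 was lower in limma without day 0 replicate 1. None of 30 ribosomal protein genes was called by limma, edgeR or DESeq2, with 1 higher and 2 lower at an unadjusted p under 0.05, but limma called 1 higher and 5 lower without day 0 replicate 1. Of 16 stress response genes Slc7a11, the cystine transporter, fell in limma alone and was not called without day 0 replicate 1, where 3 others were lower, and of 22 genes of glycolysis and mitochondria Ppargc1a and Bcat1 fell in limma alone. Interferon and innate immune genes went both ways, 3 of 26 higher and 2 lower. Psmb8 (chr17:34335140-34338399), the immunoproteasome subunit, had 111, 112 and 89 scaled reads at day 10 and 6.23, 2.28 and 0.82 at day 0, a change of 4.90 ± 0.67 (SE, adjusted p = 0.00143). Irf1 rose by 1.85, and Oas1a fell by 1.89.

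The parental line was put through the same comparison. In parental cells 417 genes were higher and 494 lower at day 10 than at day 0, or 2.02% and 2.4% of the genes tested. Of the knockout's 502 higher genes, 255 were also called higher in parental cells, which is 50.8% of the knockout's list and 61.2% of the parental one, and 499 changed in the same direction, with median changes of 1.93 in knockout and 1.51 in parental cells. Of the 1332 lower genes, 242 were also called in parental cells, 18.2% of the knockout's list and 49.0% of the parental one, and 1087 (81.6%) changed in the same direction, with medians of -3.14 in knockout and -0.79 in parental cells. Over all genes tested the median changes were -0.68 in knockout and -0.20 in parental cells. How many of all genes changed in the same direction was not counted, so the 499 and 1087 have no such share beside them. No gene was called in opposite directions. When the knockout change minus the parental change was tested itself, limma and edgeR each called 0 genes. At an unadjusted p under 0.05 limma had 176 genes above and 1619 below 0, edgeR had 256 and 1287, and limma had 241 and 1143 without knockout day 0 replicate 1 and 282 and 967 without the parental day 10 replicate 3 as well. DESeq2 called 12 above (0.0751%) and 132 below (0.826%), 0.901% in all. The 5 highest genes of limma's unadjusted list were Nkx1-2, Sept1, S100a16, Fam25c and Wfikkn1. Nkx1-2, a homeobox gene, had 71.4, 279 and 269.7 scaled reads at day 10 and 12.4, 5.54 and 7.01 at day 0 in knockout cells against 3.09, 80.3 and 23 at day 10 and 10.6, 4.18 and 13.1 at day 0 in parental cells. The 5 lowest were Lmo3, Glra3, Myh15, Kcnip4 and 4931412M21, and in each the highest values of their groups were those of knockout day 0 replicate 1 and parental day 10 replicate 3. Lmo3 had 37, 10.3 and 601 scaled reads at day 10 and 99, 66.8 and 39 at day 0 in parental cells. In the naive list the fitted change of the knockout lay above that of the parental line in 26 of the 32 genes, 7 of them at an unadjusted p under 0.05, while the medians were -1.69 in knockout and -2.38 in parental cells. Over all 20624 genes tested the knockout's change lay above the parental one in 6988, and the median difference was -0.36. None of these differences passed adjustment in limma.

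The noncoding RNA of X inactivation rose in the knockout. Xist (chrX:100655712-100678572) had 3459, 4109.8 and 4698 scaled reads in knockout cells at day 10 and 750.3, 617 and 654 at day 0, a change of 2.59 ± 0.32 (SE, adjusted p = 0.000668), against 4635, 5681 and 7163 at day 10 and 852, 405 and 357 at day 0 in parental cells, a change of 3.52 ± 0.32 (SE, adjusted p = 5.24e-05). The knockout's stages did not overlap, and the difference between the lines in this change was not called. Tsix had 460.1, 356 and 280.5 scaled reads at day 10 and 943, 971 and 959 at day 0, a change of -1.42 ± 0.40 (SE, adjusted p = 0.0423) in limma, with an adjusted p of 0.084 in edgeR and 0.093 after RLE scaling. Tsx, its testis-expressed neighbour, fell by 4.52. Xist and Tsix overlap on opposite strands and the labels do not say whether the counting used the strand, so reads of one may be counted for the other.

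X-linked genes are set apart here because differentiation starts X inactivation, and the difference from autosomes was not tested. Of 822 tested X-linked genes 13 were higher and 116, or 14.1%, lower at day 10, against 489 higher and 1216 lower, or 6.14%, of 19796 autosomal genes. The median change was -1.16 for the X and -0.66 for the autosomes. In 4 alternatives the X also lay below the autosomes, with 8.91% against 3.17% lower after RLE scaling, 10.1% against 3.84% with Rn45s left out of the totals, 7.77% against 3.15% in edgeR, and 26.03% against 9.69% without day 0 replicate 1. Without the Magea, Xlr and Rhox genes it was 13.8% of 798. The X held 3.55% to 3.71% of each day 10 library's reads, against 3.97%, 5.04% and 5.10% at day 0. At day 0 this share was lower in libraries rich in Rn45s, as all knockout day 10 libraries were. Parental day 0 replicates 1 and 2, rich in Rn45s, held 3.92% and 3.997%. Parental day 0 replicate 3, with Rn45s at 0.129%, held 4.87%. The fit without knockout day 0 replicate 1 kept only day 0 replicates 2 and 3, both low in Rn45s. What part this had in the X difference was not tested.

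Reads that carry a sequence difference between the 2 X chromosomes gave the share of each in the RNA. Over 232 X-linked genes with at least 10 such reads in each knockout library, the musculus share was 33.4%, 33.0% and 30.2% in knockout cells at day 10 and 49.9%, 47.6% and 47.5% at day 0, that is 32.2% ± 1.73 and 48.4% ± 1.34 (SD, n = 3 each), a difference of -16.1 points. Xist is among these genes, and without it the shares were 31.5%, 31.0% and 27.7% at day 10 and 49.7%, 47.5% and 47.4% at day 0. The stages did not overlap, and the exact two-sided permutation p was 0.1, the smallest that 3 against 3 libraries allow. Parental cells gave 25.2%, 25.2% and 30.2% at day 10 and 51.0%, 49.1% and 48.3% at day 0. On chromosome 13 the knockout's musculus share was 51.7% to 51.8% at day 10 and 51.8% to 52.2% at day 0. It was 59.99% to 60.6% at day 10 and 61.5% to 63.1% at day 0 on chromosome 5, and 62.4% to 63.3% at day 10 and 58.2% to 60.7% at day 0 on chromosome 7. On chromosome 9 it was 53.2% to 53.4% at day 10 and 53.9% to 56.1% at day 0. The stages did not overlap on chromosomes 5, 7 and 9 either, over smaller distances than on the X. Leaving Xist aside, 216 of 231 genes had a lower mean musculus share at day 10 and 143 of them, 61.9%, did so with no overlap between stages, against 108 of 1288 autosomal genes, or 8.39%. Xist itself was read from the musculus chromosome at both stages, at 95.3% to 97.1% at day 10 and 95.7% to 99.3% at day 0. Shares rest on 11559 to 17726 allelic reads per library at day 10 and 17207 to 244563 at day 0, and how the authors assigned alleles is not given in the sources used here.

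Single X-linked genes spanned the whole range. Amot, an angiomotin of the Hippo pathway, had a musculus share of 4.72%, 4.48% and 4.24% at day 10, over 212, 558 and 613 reads, against 57.1%, 43.1% and 43.4% at day 0, over 14, 72 and 76 reads. Flna, the filamin that rose by 1.41 with the contractile group, had 24.7%, 25.5% and 20.1% at day 10 against 50%, 50.5% and 51.9% at day 0. Kdm6a, a histone demethylase known to escape X inactivation, had 54.1%, 53.1% and 44.6% at day 10 against 50.3%, 51.7% and 55.2% at day 0. Amot was nearly all castaneus at day 10, Flna sat between, and the stages of Kdm6a overlapped. At day 10, 12 of the 231 genes were below 10% musculus and 39 lay between 40% and 60%, against 186 between 40% and 60% at day 0. These 3 genes were singled out after their values were seen.

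**Figure D4:**
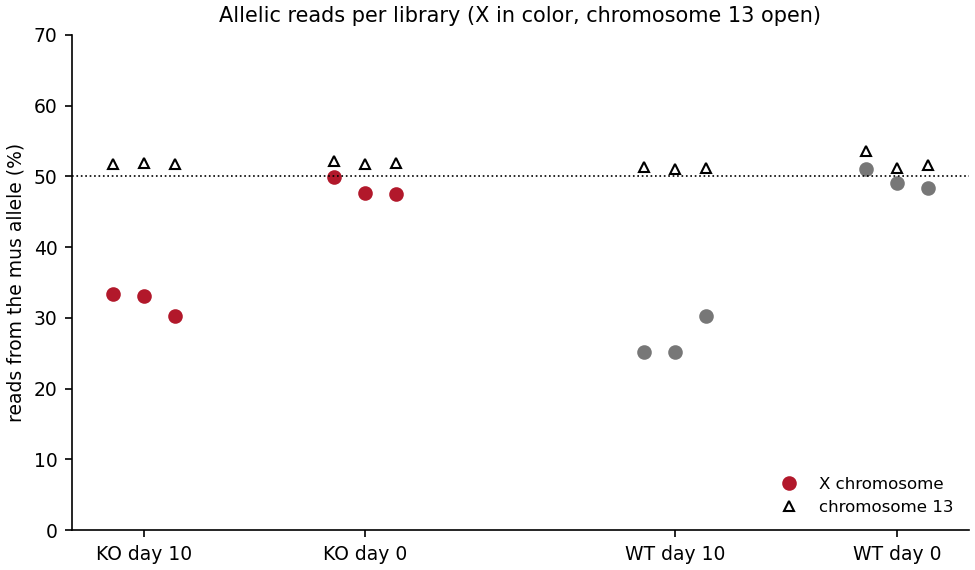
Musculus share of allelic reads, in percent, per library over the X-linked genes and over chromosome 13, in knockout and parental cells at day 10 and day 0. On the X the knockout lies at 30.2% to 33.4% at day 10 and 47.5% to 49.9% at day 0, while chromosome 13 stays between 51.1% and 53.6% in all 12 libraries.

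Promoters in use carry acetylation of histone H3 lysine 9 (H3K9ac). It was profiled by ChIP-seq in 1 knockout sample per stage, so its values have no replicate and no test. The authors' peak lists hold 51501 peaks in knockout cells at day 10 and 37704 at day 0. Of the 502 genes that rose, 269, or 53.6% (Wilson 95% interval 49.2% to 57.9%), had a peak within 1 kb of the start site at day 10 and none at day 0. The share was 17.1% among all 20624 genes tested and 11.0% among the 1332 that fell. Among genes with no peak at day 0 it was 83.3% of those that rose and 31.5% of all. A peak at day 0 and none at day 10 was found in 0.797% of genes that rose, 9.46% of those that fell and 3.4% of all. The intervals cover counting over genes only. The contrast depends on the authors' weaker peaks. With peaks of a −log10 q of at least 5, which left 2331 at day 10 and 777 at day 0, the shares with a peak at day 10 and none at day 0 were 9.96% of genes that rose and 10.8% of all.

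By group, 8 of the 11 streak and mesoderm genes that rose had such a peak at day 10 and none at day 0, as did 7 of the 8 trophoblast and caudal genes, 7 of the 8 epithelial genes, 9 of the 14 imprinted genes and 6 of the 14 contractile genes. Krt8 had a fold enrichment of 5.08 at day 10 and no peak at day 0, Cdx2 of 2.77 and Peg10 of 4.56, both also without a day 0 peak, in the authors' peak lists. Peg3 had a peak at both stages, of 5.45 at day 10 and 4.24 at day 0. No peak was listed near the start of Acta2 or Actc1 at either stage. Of the 32 naive genes, 17 had a peak at both stages, 8 at day 0 and not at day 10, and 2 at day 10 and not at day 0.

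**Figure D5:**
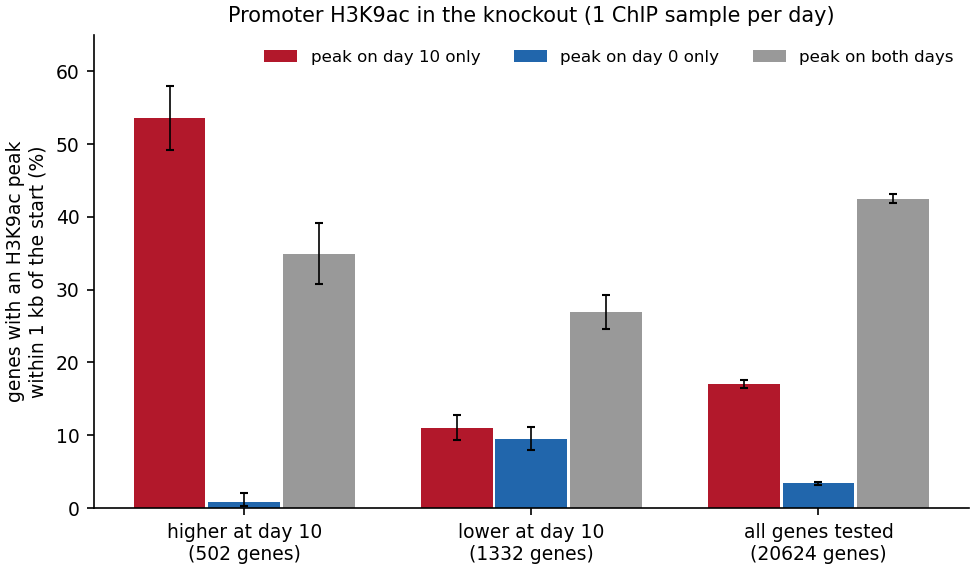
Share of genes, in percent, with an H3K9ac peak within 1 kb of the start site in knockout cells at day 10 only, at day 0 only or at both stages, for genes higher at day 10, genes lower at day 10 and all genes tested, with Wilson 95% intervals. Day 10 only holds 53.6% of the higher genes, 11.0% of the lower genes and 17.1% of all genes.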

How the data were processed

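Per the submitters' processing notes, the reads were processed with TopHat, HOMER, Novoalign and MACS2 on build mm9, and which tool served which file is not given in the sources used here. The deposited expression table holds, per gene and library, a signal that its values show to be read counts scaled to 1 common total. Whole reads were recovered for 100% of values within 0.006. The authors' log2 fold changes and p-values in that table were not used. The deposited allele table holds counts of musculus and castaneus reads per gene. The deposited H3K9ac peak lists give, per the file headers, a fold enrichment and a −log10 p and −log10 q per peak, and the lists were used as called. H3K9me2 samples were not analysed here, and 2 input samples could not be placed in a group.

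Log2(scaled reads + 1) was fitted in limma 3.58.1 (R 4.3.3) with trend and robust options on all 12 RNA libraries, so that 4 groups shared 1 estimate of the spread, for genes above 1 in at least 3 libraries. The quasi-likelihood test of edgeR 4.0.16 and DESeq2 1.42.0 were run on the recovered reads. The exact tests, Wilson intervals and figures used Python 3.11.15 with numpy 2.4.6, pandas 2.3.3, scipy 1.17.1 and matplotlib 3.10.9. Depth was 2190470 to 26683300 reads per knockout library, and intervals and floors cover counting error only. Simulated data were given a dispersion of 0.222, the common value that edgeR estimated from the 12 RNA libraries. There limma recovered 12% and edgeR 21% of 100 genes changed 4-fold, and neither recovered any changed 2-fold. At that dispersion a gene that was not called may thus still have changed. With a lower dispersion of 0.0222, not estimated from the data, limma recovered 77% and edgeR 88% of 2-fold changes. Both then recovered 100% of 4-fold changes.

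Genes were named by a rule: Ehmt2, Ehmt1, Xist and Tsix, the 10 highest and 10 lowest changes called by both tools with a mean above 50 in the higher group, up to 4 called members of each list with the lowest p (or, where under 2 were called, the 2 with the highest mean), and the 5 highest and 5 lowest differences between lines. Other genes of a list that passed are named as examples, not every gene that the rule names is printed, and 2 of them are not reported here. The comparison, the 35 gene lists and the tests were chosen with earlier results of these data known. Alternatives comprised other scalings, filters and pseudocounts, DESeq2, a replicate block and leaving out each library. Same-numbered libraries did not all deviate together (correlations 0.10, 0.11 and 0.00182 in knockout cells), so numbers were not treated as pairs.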

Additional observations from a re-analysis of the deposited data

How the results depend on the processing

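The 1834 calls of knockout day 10 against day 0 became 3350 with DESeq2, 3012 with the depth correction, 1046 in edgeR, 75 when a change of over 2-fold was tested, 945 without the filter, 4105 in a fit of knockout libraries alone, 1054 with a pseudocount of 5, and 5390 without knockout day 0 replicate 1 and parental day 10 replicate 3. Leaving out 1 library gave 199 to 4517. With the replicate number as a block, which the labels do not tie to a shared culture, 1612 were called. The difference between lines stayed at 0 calls except in DESeq2, with 144. The share of higher genes with an H3K9ac peak at day 10 alone was 9.96% at a −log10 q of at least 5, 46.6% at 1.3, and 23.9% in the parental peak lists, against 10.8%, 22.9% and 9.58% of all genes in the same settings. The last pair of these, and edgeR and RLE without day 0 replicate 1, were chosen after seeing the data. The drop in musculus share was -14.6 points with at least 50 reads per gene, -17.9 as the median gene, and -16.7 to -15.1 with 1 library left out.

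Of the named genes, 27 values changed sign, all in genes that did not pass. They were Trim28 at 0.044 in DESeq2, 0.043 with RLE and 0.13 with RLE without day 0 replicate 1; Ttn at 0.18 and Jarid2 at 0.11 in that last setting; and Mcm2 at 0.074 in DESeq2 and with RLE, 0.018 with RLE without that library and 0.044 with the depth correction. The depth correction also gave Tmem92 -0.047, Hspa5 0.50, S100a16 -0.22 and Trp53inp1 0.57. EdgeR without day 0 replicate 1 gave Rpl4 -0.022. With RLE Uty was 0.031, and 1.56 without day 0 replicate 1, and with a pseudocount of 0.1 it was 0.036. Leaving out both libraries named above gave Mdm2 -0.054, Rpl4 -0.22 and Uty 1.298. With 1 library left out, the ranges were -1.09 to 0.11 for Trp53inp1, -0.054 to 0.52 for Mdm2, -0.22 to 0.30 for Rpl4 and -0.998 to 1.298 for Uty. The cause was not tested. Over all named genes and settings 3104 values kept their direction and side of the threshold, 552 no longer passed and 37 newly passed.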
